A study of Mus musculus with 10 samples.

Results

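The 8 mRNAs described here carry upstream open reading frames (uORFs) that are known for their part in the integrated stress response: Atf4, Atf5, Ddit3 (also called Chop), Ppp1r15a, Ppp1r15b, Ifrd1, Slc35a4 and Ibtk. They were chosen by name, and each name was matched through the transcript identifier to a GENCODE M21 gene symbol. The 9 names given stand for 8 genes, each with 1 listed transcript among 14534 coding transcripts. Their reads on the 5' UTR were compared with their reads on the ORF, the annotated coding sequence, in all 10 libraries. Where all ORFs serve as background, they also include noncoding transcripts, each by its listed ORF with the most footprints. All libraries came from CGR8 cells, a feeder-free embryonic stem cell line of mouse strain 129 grown with leukemia inhibitory factor, and all cultures held an equal amount of DMSO. Ribosome footprints, the RNA pieces that ribosomes protect from RNase, were sequenced from cells without drug (control) and from treated cells. DMDA-PatA was given at 1 µM for 10 min, harringtonine at 2 µg/ml for the same time, and puromycin at 0.2 mg/ml for 20 min. DMDA-PatA is a pateamine A analog that acts on the initiation factor eIF4A, harringtonine stops ribosomes that have just begun elongation, and puromycin mimics aminoacyl-tRNA and releases the nascent chain. The whole transcriptome was sequenced from untreated cells only, so a change of RNA amount and a change of footprints per RNA under a drug cannot be told apart. Each condition had 2 libraries of the same line, and p-values rest on the spread between libraries of a condition. In the tests of the 5' UTR or the ORF alone this spread is pooled over transcripts. Such a p-value does not reflect how far apart the 2 libraries of a single mRNA lie. A fit without 1 library keeps only 1 in that condition, so its calls do not reflect the spread of that condition.

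In the integrated stress response, kinases that sense stress phosphorylate the initiation factor eIF2, and general initiation drops. A small set of mRNAs escapes this drop because ribosomes that would otherwise be held by a uORF then reach the coding sequence. ATF4 is the main transcription factor made in this way, ATF5 is a related factor, and Ddit3 encodes CHOP, a transcription factor of the later stress program. Ppp1r15a (GADD34) and Ppp1r15b (CReP) encode the subunits that direct protein phosphatase 1 to eIF2, the first inducible by stress and the second present in unstressed cells. Ifrd1 encodes a transcriptional coregulator, Ibtk an inhibitor of Bruton's tyrosine kinase, and Slc35a4 a nucleotide sugar transporter family member whose 5' UTR holds a long, conserved uORF.

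Every one of the 8 5' UTRs held at least 1 AUG, against 51.3% of 11264 coding transcripts whose listed start and stop codons were found in the GENCODE sequence. As the mRNAs were chosen for known uORFs, this follows from the choice and is not a result. The 8 5' UTRs held 30 upstream AUGs in all, of which 9 had a purine 3 nt before the AUG and a G right after it, or 30%, against 17.1% of 17187 upstream AUGs in all coding transcripts. These 9 lay in 5 of the mRNAs, and Ddit3, Ppp1r15a and Ifrd1 had none. The number of upstream AUGs was 12 in Slc35a4, 4 in Ibtk, 3 each in Atf4, Ppp1r15a and Ppp1r15b, 2 each in Atf5 and Ddit3, and 1 in Ifrd1. Only the last uORFs of Atf4 and Atf5 ran past the start of the coding sequence, by 83 nt and 56 nt, a layout found in 18.2% of all coding transcripts. The 5' UTRs were 594 nt long in Atf4, 373 nt in Atf5, 186 nt in Ddit3, 283 nt in Ppp1r15a, 604 nt in Ppp1r15b, 233 nt in Ifrd1, 722 nt in Slc35a4 and 568 nt in Ibtk, against a median of 171 nt.

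The start codons that a scanning ribosome meets on Atf4 and Atf5 follow here to show their order and context. Those of the uORFs of Ddit3 and Ifrd1, and of some uORFs of Ppp1r15a and Ppp1r15b, are also given. The Ppp1r15a uORF at position 79 and the Ppp1r15b uORFs at 103 and 326 are left out. Each start codon is shown in capitals within 27 nt of the GENCODE M21 transcript, 5' to 3' in DNA letters. Positions of uORFs count from 1 at the transcript's 5' end, and genome positions are those of GRCm38. Atf4 (ENSMUST00000109605, chr15:80255184-80257541, plus strand) has uORFs of 36 codons at position 120, of 3 codons at position 399 and of 59 codons at position 498, all starting in exon 1, and its coding sequence starts in exon 2 at position 595. The windows at position 498 and at 253 of Atf5 cross an exon junction.
Atf4 uORF at 120: cacttttctctcATGgggcctttagga
Atf4 uORF at 399: cttgcggccaccATGgcgtattagagg
Atf4 uORF at 498: ccggcctaagccATGgcgctcttcacg
Atf4 coding sequence: aagccccacaacATGaccgagatgagc
Atf5 uORF at 122: tccgcccgcgcaATGgctctgtagccg
Atf5 uORF at 253: cttttcgccgccATGgagtcctccacc
Atf5 coding sequence: tgtgtcacagccATGtcactcctggcg
Ddit3 uORF at 56: gtcgattatatcATGttgaagatgagc
Ddit3 uORF at 65: atcatgttgaagATGagcgggtggcag
Ppp1r15a uORF at 35: gccgcgtggacgATGttggcgcagatt
Ppp1r15a uORF at 180: cctgagggcgacATGaacccgctggct
Ppp1r15b uORF at 375: tccctagccgggATGgacctaaccgcg
Ifrd1 uORF at 32: ctagagagaaacATGtatcgtttccgc

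Atf5 (ENSMUST00000047356, chr7:44812256-44816658, minus strand) has the same order of a 3-codon uORF followed by a 58-codon uORF that overlaps the coding sequence. In Ddit3 (ENSMUST00000026475, chr10:127290774-127296288, plus strand) both AUGs share a frame and a stop codon and open uORFs of 34 and 31 codons that end 26 nt before the coding sequence. Ppp1r15a (ENSMUST00000042105, chr7:45522917-45526268, minus strand) has uORFs of 45, 34 and 26 codons, the last ending 23 nt before the coding sequence. The uORFs of Ppp1r15b (ENSMUST00000052529, chr1:133131143-133139783, plus strand) have 2, 8 and 51 codons. The only AUG uORF of Ifrd1 (ENSMUST00000001672, chr12:40201567-40223189, minus strand) has 52 codons. Ibtk (ENSMUST00000039213, chr9:85687360-85749334, minus strand) has uORFs of 19, 3, 7 and 10 codons. The first uORF of Slc35a4 (ENSMUST00000036158, chromosome 18, plus strand) has 103 codons, the longest of the 30.

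**Figure D1:**
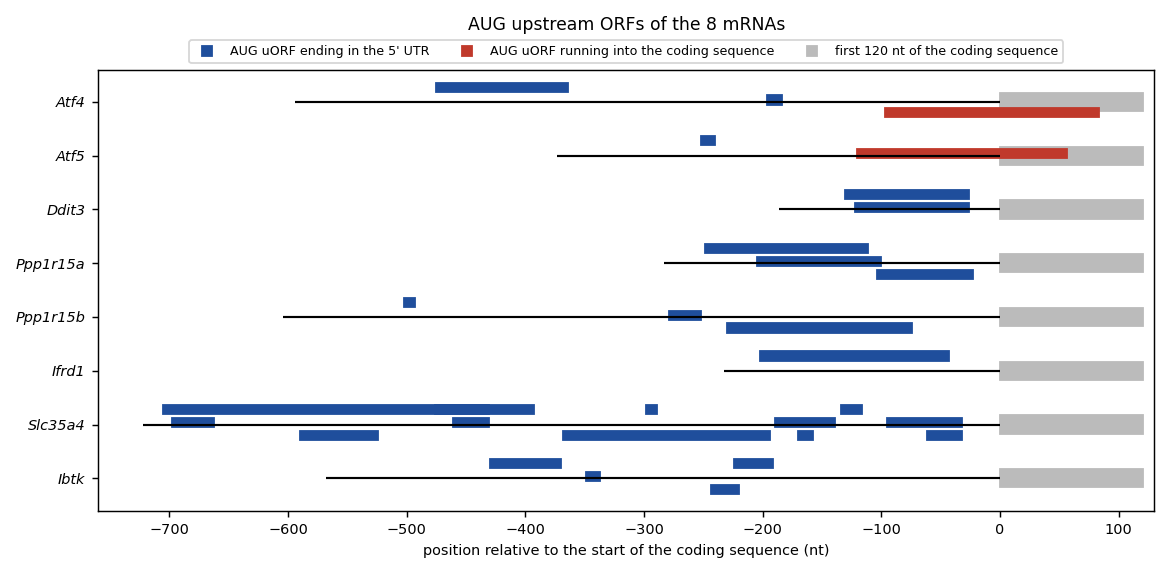
Map of the AUG uORFs of the 8 mRNAs, drawn to scale in nt from the start of the coding sequence (0). Black lines are 5' UTRs and boxes are uORFs with their stop codons. The red uORFs of Atf4 and Atf5 run 83 and 56 nt into the coding sequence (grey, only its beginning drawn), and Slc35a4 has 12 uORFs.

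The deposited values were read numbers scaled by the authors, to spike-in RNA for footprints, and are called normalized footprints here. On coding transcripts the libraries held between 1027314 reads (DMDA-PatA replicate 1) and 11161453 reads (control replicate 2) for footprints, and 25508180 and 59271162 reads for the transcriptome. The authors' counts leave out the last 10 nt before the start codon from the 5' UTR, and footprints on the part of a uORF inside the coding sequence count for the ORF. Exons of genes on the opposite strand overlap the whole 5' UTR of Ppp1r15b and of Ifrd1, and 204 nt of that of Ibtk, 82 nt of that of Atf5 and 13 nt of that of Ddit3. The libraries are labelled as stranded, and whether the counting used the strand is not given in the sources used here. All 8 stem cell markers examined were at 739 to 10409 transcriptome reads per kb of ORF, above the median coding transcript (400), whereas the 4 endoderm markers were at 4.58 to 53.2. Of the fibroblast markers Col1a1 and Col1a2 were at 30848 and 6870 reads per kb and Thy1 at 250. Of the mesoderm markers T was at 1902, Mixl1 at 451 and Kdr at 169, and of the neuroectoderm markers Nes was at 1857, Pax6 at 110 and Sox1 at 3.35. The part of these genes in the results was not tested. Counting error alone is covered by binomial intervals, which are given below only for some shares of Atf4, Atf5 and Ibtk. The SD of the other shares is the spread of 2 libraries.

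In untreated cells, 7 of the 8 mRNAs had a larger share of footprints than of RNA reads on the 5' UTR by the test given below. The difference was small for Ibtk, whose call was lost in 3 other fits, and Atf5 was not called. Slc35a4 was called with only 6 and 2 control reads on its ORF. The share of reads on the 5' UTR, of those on 5' UTR and ORF together, had a median of 1.82% over 12425 coding transcripts in the control footprints and of 3.03% over 13812 coding transcripts in the transcriptome. In Slc35a4 the share was 91.9% ± 6.94 (SD, n = 2) of control footprints and 51.3% ± 1.49 of transcriptome reads. In Ddit3 these shares were 76.4% ± 3.56 and 16.8% ± 0.503. Among coding transcripts Slc35a4 and Ddit3 stood at the 99.6 and 99.3 percentile of the share in footprints.

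Ppp1r15a and Atf4 came next. Ppp1r15a had 58.5% ± 9.27 of its control footprints on the 5' UTR and 6.20% ± 0.0788 of its transcriptome reads. Atf4 had 58.1% ± 23.4 of its control footprints on the 5' UTR and 7.50% ± 0.665 of its transcriptome reads. Its control libraries did not overlap within counting error, with 41.5% in replicate 1 (exact 95% binomial interval 38.4 to 44.7) and 74.6% in replicate 2 (72.8 to 76.3). Atf5 had 51.5% ± 21.2 of control footprints on the 5' UTR but also 34.6% ± 1.75 of transcriptome reads. Its control libraries were also apart, at 36.5% (29.0 to 44.5) and 66.5% (59.0 to 73.4). The shares in Ifrd1 were 41.7% ± 8.67 of footprints and 15.1% ± 2.92 of transcriptome reads. Ppp1r15b and Ibtk had the lowest shares in footprints, 15.7% ± 1.66 and 9.34% ± 3.73, with 6.41% ± 0.823 and 5.27% ± 0.626 in the transcriptome. In each of the 8 mRNAs both control libraries lay above both transcriptome libraries, but for Atf5 and Ibtk not beyond counting error. Control replicate 1 of Atf5 was at 36.5% and transcriptome replicate 2 at 35.8% (32.1 to 39.6). For Ibtk, control replicate 2 was at 6.71% (5.23 to 8.45) and transcriptome replicate 2 at 5.71% (5.18 to 6.29).

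The ratio of 5' UTR to ORF reads was higher in control footprints than in the transcriptome for 7 of the 8 mRNAs by the quasi-likelihood test of edgeR, adjusted over 7141 transcripts by the Benjamini-Hochberg method, where 24.8% of all transcripts were called higher and 32.0% lower. The median log2 difference was 2.77 over the 8 mRNAs and -0.19 over all transcripts tested. It was largest in Ppp1r15a (4.43 ± 0.34 SE, adjusted p = 5.62e-07 by edgeR), followed by Atf4 (4.18 ± 0.51, adjusted p = 2.03e-05), Ddit3 (4.01 ± 0.34, adjusted p = 1.05e-06) and Slc35a4 (3.51 ± 0.53, adjusted p = 0.000110). The Slc35a4 ORF had 6 and 2 reads in the control and 125 and 310 in the transcriptome. It met the read minimum only through the transcriptome, so the size of its difference is uncertain. Ppp1r15a, Atf4 and Ddit3 stood at the 99.3, 99.1 and 99.0 percentile of all transcripts tested. Ifrd1 and Ppp1r15b followed with 2.02 ± 0.32 and 1.45 ± 0.29 (adjusted p = 0.000147 and 0.000845 by edgeR). Ibtk was near the threshold at 0.86 ± 0.34 (adjusted p = 0.0434), and was not called without control replicate 1 (0.37, adjusted p = 0.406), without transcriptome replicate 1 (0.73, adjusted p = 0.134) or by DESeq2 (0.85, adjusted p = 0.137). Atf5 at 1.02 ± 0.44 missed it (adjusted p = 0.0658 by edgeR). It was called by edgeR without the read filter (1.02, adjusted p = 0.0199) and with a replicate block (1.05, adjusted p = 0.0137). The Atf5 difference was 1.90 without control replicate 1, 1.10 without transcriptome replicate 2 and only 0.11 without control replicate 2. Leaving out 1 control library moved the values of Atf4 between 3.14 and 5.18 and those of Slc35a4 between 2.64 and 4.74. With 1 control library left, the spread between controls does not enter the test, so calls in these fits are no added support.

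**Figure D2:**
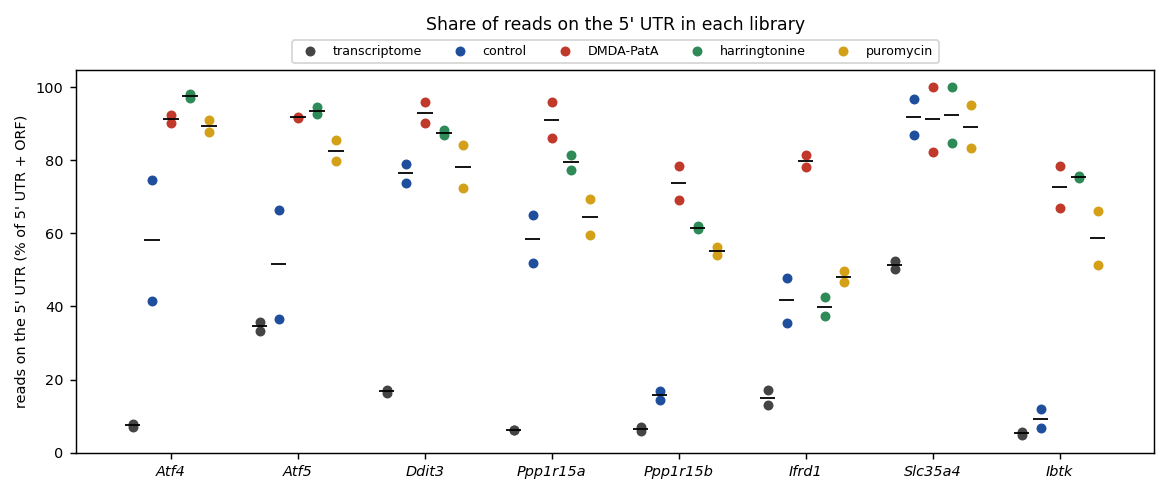
Share of reads on the 5' UTR (percent of reads on 5' UTR and ORF) in each of the 10 libraries for the 8 mRNAs. Each point is 1 library and black bars are means of 2. In all 8 mRNAs both control footprint libraries (blue) lie above both transcriptome libraries (grey), and the control points of Atf4 and Atf5 are the farthest apart. For Atf5 and Ibtk the lower control point is within counting error of the higher transcriptome point.

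On the mean of the replicates, the ORFs of the 8 mRNAs held fewer footprints per transcriptome read than the median coding transcript, and for Atf5 1 replicate pair lay above it. This translation efficiency, with footprints and transcriptome reads of the ORF each scaled to the same total, had a median of 0.867 over 14004 coding transcripts. Slc35a4 stood at 0.0558 (1.06 percentile), with 0.0878 and 0.0231 in the replicate pairs. Ppp1r15a stood at 0.118 (2.36 percentile, pairs 0.139 and 0.0978) and Atf4 at 0.174 (3.98 percentile, pairs 0.173 and 0.174). The ratio of control replicate 2 to replicate 1 was 0.853 on the Atf4 ORF and 3.52 on its 5' UTR. Ddit3 followed at 0.268 (8.83 percentile, pairs 0.294 and 0.237). Ppp1r15b, Ifrd1 and Ibtk lay close together at 0.457, 0.470 and 0.531 (21.6, 22.5 and 27.2 percentile), and the pair values of Ifrd1, 0.553 and 0.394, spanned the other two. Atf5 was the highest at 0.729 (41.4 percentile), with pairs at 0.914 and 0.500. These are values without a test.

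**Figure D3:**
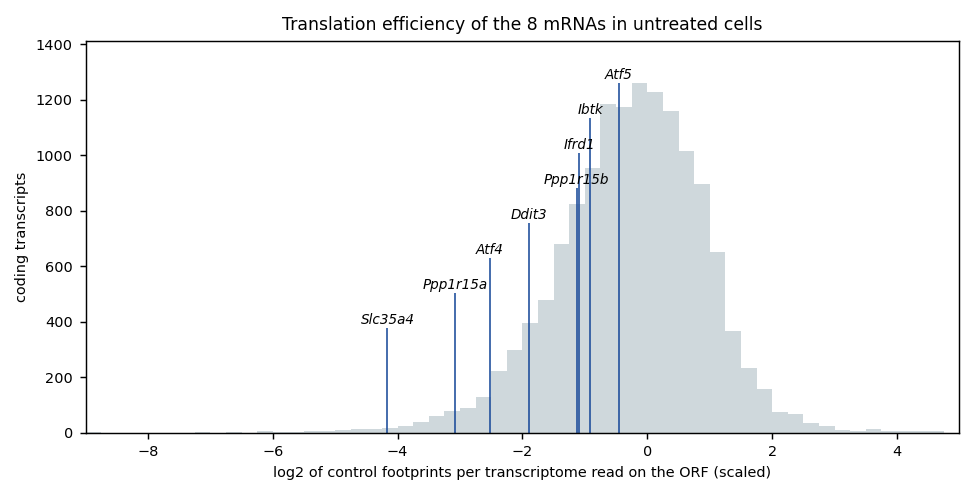
Histogram of translation efficiency in untreated cells over coding transcripts (log2 scale, each bin 0.25 wide), with a blue line at each of the 8 mRNAs; the line heights only separate the names. The means of all 8 lie below the median of 0.867, from Slc35a4 (0.0558) to Atf5 (0.729).

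Atf4, which makes the main transcription factor of the response, showed the largest numbers of 5' UTR footprints of the 8. The 5' UTR held 469 normalized footprints in control replicate 1 and 1653 in replicate 2, 281 and 463 under DMDA-PatA, 3010 and 1825 under harringtonine, and 2151 and 3030 under puromycin. Both harringtonine and both puromycin libraries lay above the controls, and both DMDA-PatA libraries lay below them. The ORF held 660 and 563 in the control, 30.9 and 38.1 under DMDA-PatA, 95.4 and 37.8 under harringtonine, and 213 and 427 under puromycin. Every drug library was below both controls on the ORF, puromycin the least. On the log2 scale, the 5' UTR rose by 1.19 ± 0.43 with harringtonine (adjusted p = 0.0186 by edgeR) and fell by 1.52 ± 0.44 with DMDA-PatA (adjusted p = 0.00225). With puromycin the difference was 1.29 ± 0.43 (adjusted p = 0.143), and limma called it on log2(value + 1) (1.53, adjusted p = 0.0405). The ORF fell with each drug, with log2 differences of -4.15 ± 0.49, -3.21 ± 0.47 and -0.93 ± 0.43 in the order DMDA-PatA, harringtonine, puromycin (adjusted p = 6.33e-17, 1.77e-11 and 0.0340 by edgeR).

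The control libraries of Atf4 were far apart on the 5' UTR. The ratio of control replicate 2 to replicate 1 on the Atf4 5' UTR was 3.52, the second farthest from the median (0.970) of 312 5' UTRs with at least 500 control reads. Without control replicate 2 the DMDA-PatA difference on the 5' UTR was -0.34 (adjusted p = 0.710 by edgeR), and without replicate 1 it was -2.15. The harringtonine difference was 0.55 without control replicate 1 (adjusted p = 0.528), 2.36 without control replicate 2 and 0.78 without harringtonine replicate 1 (adjusted p = 0.222), and DESeq2 did not call it (adjusted p = 0.0538). The spike-in factors of DMDA-PatA and harringtonine may be assigned the other way round in the study's supplement, and with them swapped the Atf4 5' UTR differed by 0.91 under harringtonine and was not called (adjusted p = 0.0504 by edgeR). With puromycin, leaving out either DMDA-PatA library gave a call on the Atf4 5' UTR (1.29, adjusted p = 0.0348 and 0.0384), but the difference was 0.65 without control replicate 1 (adjusted p = 0.932) and 2.47 without control replicate 2, neither of them called. On the ORF the puromycin call was lost without control replicate 1 (-0.81, adjusted p = 0.203), without control replicate 2 (-1.04, adjusted p = 0.0980), without puromycin replicate 1 (-0.52, adjusted p = 0.407), by DESeq2 (adjusted p = 0.0546) and with a replicate block (-0.92, adjusted p = 0.0636), and it was -1.52 without puromycin replicate 2. The ORF difference with harringtonine was -4.01 without harringtonine replicate 1.

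Taken within each library, which removes the scaling of the library, the Atf4 5' UTR gained on the ORF with each drug. The share of footprints on the 5' UTR was 58.1% ± 23.4 (SD, n = 2) in the control, 91.2% ± 1.63 under DMDA-PatA, 97.4% ± 0.737 under harringtonine and 89.3% ± 2.35 under puromycin. All 6 drug libraries were above both controls. The ratio of 5' UTR to ORF rose by 2.83 ± 0.50, 4.70 ± 0.49 and 2.50 ± 0.46 on the log2 scale in the same order of drugs (adjusted p = 2.48e-05, 2.55e-08 and 9.39e-05 by edgeR). Over the libraries left out, these differences ranged from 1.83 to 3.88, 3.71 to 5.75 and 1.51 to 3.55.

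Atf5, whose product is a relative of ATF4, lost most of its ORF footprints with DMDA-PatA and harringtonine. The ORF held 119 and 53.5 normalized footprints in the control, 2.53 and 4.06 under DMDA-PatA, 4.06 and 4.90 under harringtonine, and 16.5 and 49.7 under puromycin. The 5' UTR held 68.4 and 106 in the control, 27.8 and 45.5 under DMDA-PatA, 69.0 and 60.9 under harringtonine, and 97.2 and 196 under puromycin. On the ORF the drug libraries lay below the controls, whereas on the 5' UTR only the DMDA-PatA libraries were clear of them. The ORF fell with DMDA-PatA, harringtonine and puromycin, with log2 differences of -4.68 ± 0.58, -4.20 ± 0.57 and -1.29 ± 0.47 (adjusted p = 2.12e-15, 5.91e-13 and 0.00706 by edgeR). On the 5' UTR the DMDA-PatA decrease was called (-1.26 ± 0.48, adjusted p = 0.0233), and the differences with harringtonine (-0.43 ± 0.47) and puromycin (0.76 ± 0.47) were not.

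Few reads stand behind Atf5, with 101 and 59 on the ORF in the control, and control replicate 1 moved its values. Without that library the ORF difference was -4.00 under DMDA-PatA, -3.53 under harringtonine and -0.64 under puromycin (adjusted p = 0.389 by edgeR). The puromycin call on the ORF was also lost without puromycin replicate 1 (-0.78, adjusted p = 0.200) and by DESeq2 (-1.34, adjusted p = 0.0557), and the value was -2.36 without puromycin replicate 2. The 5' UTR call with DMDA-PatA was lost without control replicate 2 (-0.91, adjusted p = 0.282) or DMDA-PatA replicate 1 (-0.94, adjusted p = 0.162). For Atf5 the ratio of 5' UTR to ORF rose with each drug, by 3.32 ± 0.65, 3.69 ± 0.62 and 2.06 ± 0.53 on the log2 scale (adjusted p = 7.88e-05, 1.26e-05 and 0.00189 by edgeR). Without control replicate 1 these were 2.44, 2.81 and 1.19, the last not called (adjusted p = 0.0621), and without control replicate 2 they were 4.22, 4.59 and 2.98.

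Ddit3, which encodes CHOP, was the only ORF of the 8 with more footprints under puromycin than in the control. Its ORF held 41.3 and 28.1 normalized footprints in the control, 6.31 and 3.25 under DMDA-PatA, 30.4 and 19.6 under harringtonine, and 35.2 and 145 under puromycin. Puromycin replicate 2 was above both controls and replicate 1 lay between them. The log2 difference with puromycin was 1.44 ± 0.46 (adjusted p = 0.00238 by edgeR). Only 44 of 12499 ORFs of coding and noncoding transcripts, or 0.352%, were called higher with puromycin. Ddit3 was number 13 of these 12499 in order of the log2 difference. Its ORF has 504 nt, and of the 1025 tested ORFs of 400 to 600 nt on coding transcripts, 10 were called higher (0.976%). Their median log2 difference was -1.51. The call rests on 1 library, as the difference was 0.03 without puromycin replicate 2 (adjusted p = 0.963), 2.08 without puromycin replicate 1 and 1.16 without control replicate 2 (adjusted p = 0.115). limma on log2(value + 1) gave 1.05 (adjusted p = 0.0520).

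With DMDA-PatA the Ddit3 ORF fell by 2.78 ± 0.57 on the log2 scale (adjusted p = 1.28e-06 by edgeR), and with harringtonine the difference was -0.48 ± 0.48 (adjusted p = 0.331). The harringtonine libraries overlapped the controls. The Ddit3 5' UTR held 117 and 105 in the control, 58.1 and 73.9 under DMDA-PatA, 226 and 130 under harringtonine, and 186 and 381 under puromycin. The libraries of each drug were on one side of the controls, and yet none of the 3 differences passed the test (-0.75 ± 0.46, 0.68 ± 0.45 and 1.36 ± 0.46, adjusted p = 0.178, 0.223 and 0.146 by edgeR). The puromycin difference was called without DMDA-PatA replicate 1 or 2 (adjusted p = 0.0413 and 0.0407), and was 0.75 without puromycin replicate 2 (adjusted p = 0.883). For Ddit3 the ratio of 5' UTR to ORF rose by 2.00 ± 0.55 with DMDA-PatA (adjusted p = 0.00210 by edgeR) and by 1.11 ± 0.47 with harringtonine (adjusted p = 0.0295). With puromycin the difference of the ratio was 0.07 ± 0.47 (adjusted p = 0.892). The harringtonine call was lost without control replicate 1 (0.91, adjusted p = 0.164), without harringtonine replicate 1 (1.03, adjusted p = 0.0906), by DESeq2 (adjusted p = 0.0731) and by limma on log2(value + 1) (adjusted p = 0.0666), and the DMDA-PatA value was 2.76 without DMDA-PatA replicate 1.

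**Figure D4:**
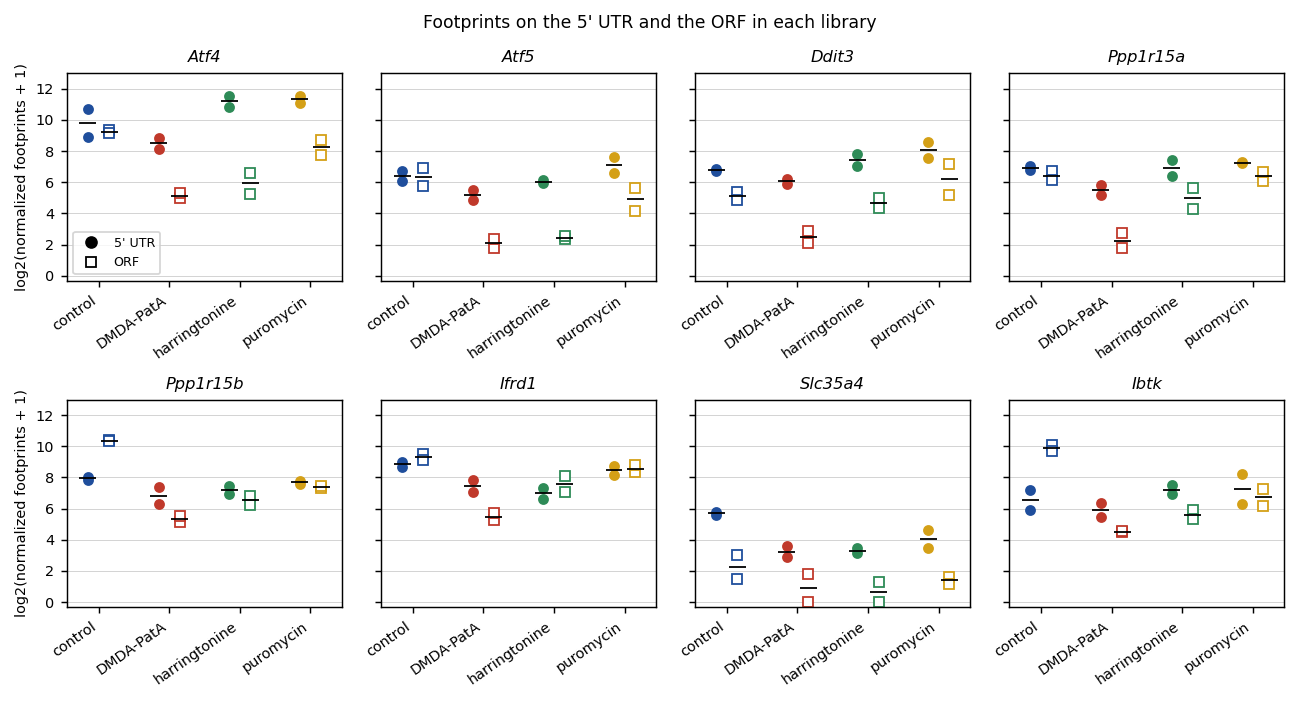
Normalized footprints of the 8 mRNAs in the 8 footprint libraries, as log2(value + 1), on the 5' UTR (filled circles) and the ORF (open squares). Each point is 1 library and black bars are means of the log2 values. Under DMDA-PatA the 5' UTR of all 8 mRNAs lies above the ORF, and the ORF of Ddit3 reaches its highest value, 145, in puromycin replicate 2.

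Of the subunits that direct protein phosphatase 1 to eIF2, the constitutive one lost ORF footprints with every drug, and the inducible one with DMDA-PatA and harringtonine. The ORF of Ppp1r15a, the stress-inducible subunit, held 104 and 70.7 normalized footprints in the control, 5.68 and 2.44 under DMDA-PatA, 49.7 and 18.9 under harringtonine, and 68.2 and 102 under puromycin. The puromycin libraries overlapped the controls. The ORF of Ppp1r15b, the constitutive subunit, held 1343 and 1293 in the control, 34.7 and 45.5 under DMDA-PatA, 112 and 75.6 under harringtonine, and 161 and 173 under puromycin. All 6 drug libraries were far below its controls. The ORF of Ppp1r15a fell with DMDA-PatA (log2 difference of -4.33 ± 0.57) and harringtonine (-1.37 ± 0.46), with adjusted p = 4.06e-14 and 0.00310 by edgeR, and the difference with puromycin was -0.01 ± 0.44 (adjusted p = 0.975). The ORF of Ppp1r15b fell with the drugs in the same order, with -5.04 ± 0.52, -3.82 ± 0.48 and -2.98 ± 0.47 (adjusted p = 1.05e-21, 1.67e-14 and 8.28e-10 by edgeR). Whether these mRNAs differ from each other was not tested. The harringtonine call of Ppp1r15a was lost without control replicate 1 (-1.06, adjusted p = 0.113) or harringtonine replicate 2 (-0.80, adjusted p = 0.0621) and was -2.19 without harringtonine replicate 1, and its DMDA-PatA value was -5.09 without DMDA-PatA replicate 1.

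On the 5' UTR, Ppp1r15a held 112 and 131 in the control, 34.7 and 56.8 under DMDA-PatA, 170 and 83.3 under harringtonine, and 155 and 149 under puromycin. Ppp1r15b held 229 and 263 in the control, 77.7 and 166 under DMDA-PatA, 176 and 123 under harringtonine, and 190 and 223 under puromycin. Only the decrease of Ppp1r15a with DMDA-PatA was called (-1.42 ± 0.47, adjusted p = 0.00879 by edgeR), and it was lost without control replicate 2 (-1.29, adjusted p = 0.0926) or DMDA-PatA replicate 1 (-1.10, adjusted p = 0.0910). The Ppp1r15b difference with DMDA-PatA was just outside (-1.02 ± 0.45, adjusted p = 0.0535) and was called by DESeq2 (adjusted p = 0.0447), by limma on log2(value + 1) (adjusted p = 0.0293), without DMDA-PatA replicate 2 (-1.66, adjusted p = 0.00556) and without harringtonine replicate 1 or 2 (adjusted p = 0.0342 and 0.0332). Without DMDA-PatA replicate 1 it was -0.57 (adjusted p = 0.377). Within libraries, the share on the 5' UTR of Ppp1r15a was 90.9% ± 7.04 under DMDA-PatA, 79.5% ± 2.89 under harringtonine and 64.4% ± 7.10 under puromycin, against 58.5% ± 9.27 in the control. That of Ppp1r15b was 73.8% ± 6.62, 61.6% ± 0.595 and 55.2% ± 1.54, against 15.7% ± 1.66. The ratio of Ppp1r15b rose with each drug, by 3.94 ± 0.43, 3.10 ± 0.42 and 2.73 ± 0.42 on the log2 scale (adjusted p = 4.78e-08, 7.97e-07 and 1.31e-05 by edgeR). The ratio of Ppp1r15a rose with DMDA-PatA (2.84 ± 0.57, adjusted p = 0.000107) and harringtonine (1.43 ± 0.46, adjusted p = 0.00610) and differed by 0.32 ± 0.46 with puromycin (adjusted p = 0.516). The harringtonine value was 1.05 without control replicate 1 and not called (adjusted p = 0.0933), and the DMDA-PatA value was 3.97 and 2.08 without DMDA-PatA replicate 1 and 2.

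Ifrd1, the transcriptional coregulator with a single 52-codon uORF, lost footprints on both the 5' UTR and the ORF with harringtonine. Its 5' UTR held 407 and 509 normalized footprints in the control, 133 and 223 under DMDA-PatA, 160 and 97.3 under harringtonine, and 287 and 433 under puromycin. Its ORF held 736 and 555 in the control, 37.2 and 51.1 under DMDA-PatA, 268 and 132 under harringtonine, and 329 and 438 under puromycin. The DMDA-PatA and harringtonine libraries were below the controls in both regions. With harringtonine the log2 differences were -1.83 ± 0.45 on the 5' UTR and -1.70 ± 0.44 on the ORF (adjusted p = 0.000429 and 0.000142 by edgeR), and the ratio differed by -0.10 ± 0.42 (adjusted p = 0.811). The share on the 5' UTR was 79.7% ± 2.33 under DMDA-PatA, 40.0% ± 3.58 under harringtonine and 48.2% ± 2.17 under puromycin, against 41.7% ± 8.67 in the control. Its ratio rose with DMDA-PatA (2.46 ± 0.43, adjusted p = 2.06e-05), where the 5' UTR differed by -1.37 ± 0.45 (adjusted p = 0.00748) and the ORF by -3.87 ± 0.49 (adjusted p = 3.41e-15). With puromycin no difference of Ifrd1 was called, with -0.34 ± 0.44 on the 5' UTR, -0.75 ± 0.43 on the ORF (adjusted p = 0.0888) and 0.39 ± 0.41 for the ratio. The ORF difference was called without harringtonine replicate 1 or 2 (-0.74, adjusted p = 0.0141 and 0.0146) and was -0.53 without control replicate 1 (adjusted p = 0.415). The 5' UTR call with DMDA-PatA was lost without control replicate 2 (-1.19, adjusted p = 0.106) or DMDA-PatA replicate 1 (-1.04, adjusted p = 0.0868), and the harringtonine ORF value was -2.29 without harringtonine replicate 1.

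Ibtk had the smallest mean share of control footprints on the 5' UTR, and its ORF lost footprints with each drug. Its ORF held 1074 and 832 normalized footprints in the control, 21.5 and 22.7 under DMDA-PatA, 58.8 and 38.5 under harringtonine, and 72.4 and 154 under puromycin. Its 5' UTR held 146 and 59.8 in the control, 43.6 and 82.8 under DMDA-PatA, 179 and 119 under harringtonine, and 76.5 and 302 under puromycin. On the ORF all drug libraries were far below the controls, and on the 5' UTR those of each drug overlapped them. On the ORF the log2 differences with DMDA-PatA, harringtonine and puromycin were -5.42 ± 0.52, -4.30 ± 0.49 and -3.05 ± 0.47 (adjusted p = 6.00e-24, 3.60e-17 and 2.67e-10 by edgeR). The 5' UTR differences of -0.70 ± 0.46, 0.54 ± 0.46 and 0.91 ± 0.46 were not called. The ratio rose by 4.76 ± 0.49, 4.93 ± 0.48 and 3.93 ± 0.48 (adjusted p = 2.34e-08, 9.68e-09 and 1.07e-06 by edgeR). The puromycin ORF value was -3.72 without puromycin replicate 2, and the 5' UTR difference with DMDA-PatA was called without DMDA-PatA replicate 2 (-1.23, adjusted p = 0.0483) and was 0.072 without control replicate 1.

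Slc35a4 had almost all its footprints on the 5' UTR, which holds the 103-codon uORF, and its ORF was nearly empty. The ORF held 7.07 and 1.81 normalized footprints in the control (6 and 2 reads), 0 and 2.44 under DMDA-PatA, 0 and 1.40 under harringtonine, and 2.07 and 1.24 under puromycin, while the transcriptome held 193 and 201. A count of 0 allows up to 1.89 normalized footprints in DMDA-PatA replicate 1 and up to 3.04 in harringtonine replicate 1, from 3 reads per library. A change was therefore not detectable at this depth, and the ORF was not tested for the drugs. The 5' UTR held 47.2 and 54.4 in the control, 6.31 and 11.4 under DMDA-PatA, 10.1 and 7.70 under harringtonine, and 10.3 and 23.6 under puromycin. All 6 drug libraries were below both controls. It fell with DMDA-PatA and harringtonine, with log2 differences of -2.53 ± 0.58 and -2.51 ± 0.59 (adjusted p = 0.000114 and 0.000208 by edgeR), and the puromycin difference was -1.51 ± 0.58 (adjusted p = 0.234). Under harringtonine this 5' UTR stood at the 1.2 percentile of all 5' UTRs tested.

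Set against all transcripts, the median of the 7 tested ORFs was close to that of all ORFs under DMDA-PatA, and under puromycin 5 of the 7 stood above it, with Ppp1r15b and Ibtk below. With DMDA-PatA 7 of 7 tested ORFs were called lower, where 99.3% of 12499 ORFs were, and the median log2 difference was -4.33 over the members and -4.32 over all. With harringtonine 6 of 7 were called lower, where 92.9% of all were, with medians of -3.21 and -2.97. With puromycin 4 of 7 were called lower, where 90.1% of all were, with medians of -0.93 and -2.48. Called higher were 0 of 7 with DMDA-PatA and 0 with harringtonine by edgeR, where 0.056% and 0.512% of all ORFs were, and 0 also at an unadjusted p of 0.05, by DESeq2 and by limma. These directions depend on the spike-in scaling, because TMM normalization, which centres on the bulk of transcripts, moved the medians of all ORFs to -0.12, -0.12 and -0.04 and left 2, 2 and 1 of the members called lower. Relative to the median ORF, the puromycin difference was 3.92 for Ddit3, 2.47 for Ppp1r15a, 1.74 for Ifrd1, 1.56 for Atf4, 1.19 for Atf5, -0.49 for Ppp1r15b and -0.57 for Ibtk. These comparisons are not adjusted for ORF length, and the study reports a weak effect of puromycin on short ORFs. Coding ORFs of 400 to 600 nt had medians of -1.51 with puromycin and -1.86 with harringtonine. The 5 members above the median had ORFs of 504 to 1971 nt, and Ppp1r15b and Ibtk had 2091 and 4056 nt. The part of length was not tested. The comparisons of the 3 drugs share the control libraries.

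On the 5' UTR the 8 mRNAs were mostly below the median of all 5' UTRs with DMDA-PatA and harringtonine. With DMDA-PatA 5 of 8 were called lower, where 29.0% of 6647 5' UTRs were called lower and 14.7% higher, and the median log2 difference was -1.31 over the members and -0.48 over all. Leaving out control replicate 2 or DMDA-PatA replicate 1 left 1 and 2 of these calls, and TMM normalization left 3. With harringtonine 1 was called higher (Atf4) and 2 lower (Ifrd1 and Slc35a4), where 35.1% were called higher and 5.21% lower, with medians of -0.19 and 0.88. Under TMM the Atf4 call was lost and 5 members were called lower, but TMM also raised the number of all 5' UTRs called lower (counts in the closing section). With puromycin 0 of 8 were called by edgeR, where 0.557% of all were called higher and 0.406% lower. At an unadjusted p of 0.05, 3 were higher (Atf4, Ddit3 and Ibtk) and 1 lower (Slc35a4), against 6.82% and 4.80% of all 5' UTRs, DESeq2 called 0, and limma called 1, Atf4.

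The 5' UTR gained on the ORF in 7 of 7 tested mRNAs with DMDA-PatA, in 6 with harringtonine and in 4 with puromycin, and the members' medians were below those of all transcripts. With DMDA-PatA the ratio of 5' UTR to ORF was called higher in 7 of 7 tested, where 93.6% of 6497 transcripts were, with a median log2 difference of 2.84 over the members and 4.36 over all. With harringtonine it was called higher in 6 of 7, where 95.4% were, with medians of 3.10 and 4.00. With puromycin it was called higher in 4 of 7 (Atf4, Atf5, Ppp1r15b and Ibtk), where 78.3% were, with medians of 2.06 and 2.55. A lower ratio was called by edgeR in 0 of 7 with each drug, against 0.139%, 0.123% and 0.0616% of all transcripts in the same order, and in 0 at an unadjusted p of 0.05, by DESeq2 and by limma. Ifrd1, Ddit3 and Ppp1r15a stood at the 0.8, 3.6 and 5.4 percentile of this difference with harringtonine and at the 5.0, 3.1 and 4.6 percentile with puromycin. Ibtk stood above the median of all transcripts with each drug (58.4, 71.4 and 83.6 percentile), Atf4 with harringtonine (66.6) and Ppp1r15b with puromycin (55.6). No test compares the members as a set with the other transcripts.

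**Figure D5:**
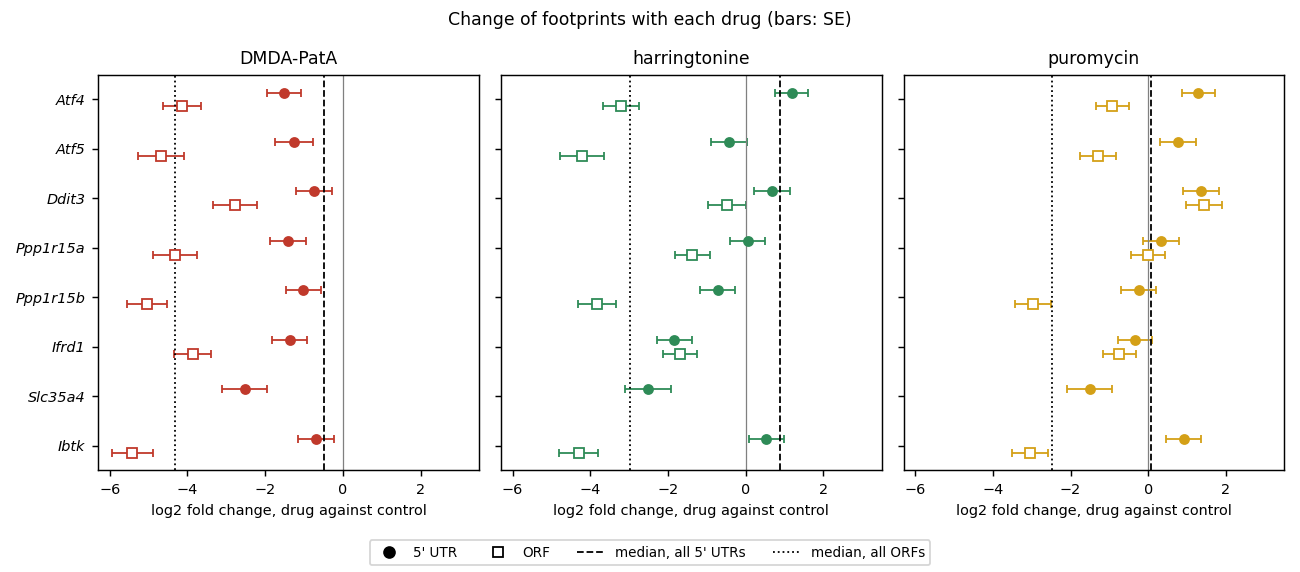
Log2 fold change of footprints with each drug against the control on the 5' UTR (filled circles) and the ORF (open squares) of the 8 mRNAs, with standard errors from edgeR, under spike-in scaling. The dashed and dotted lines are the medians of all 5' UTRs and all ORFs. The ORF squares scatter about the dotted line with DMDA-PatA, and with puromycin 5 of 7 lie to its right.

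The transcripts whose footprints changed most like those of each mRNA were found by distance over 12 values, the log2 changes of the 5' UTR and the ORF in the 6 drug libraries, among 6497 transcripts. Nearest to Atf4 were Zfp574 (distance 1.76), Akt1 (1.79) and Crb3 (1.89), against a median distance of 5.04. The nearest to the others were Irs1 for Atf5 (1.51), Otx2 for Ddit3 (2.54), Usp20 for Ppp1r15a (1.68), Rbms1 for Ppp1r15b (0.976), Tmem138 for Ifrd1 (1.83) and Aars for Ibtk (1.59). Slc35a4 was not placed, as its ORF had too few reads.

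Other genes of the response were compared in the same way in untreated cells. Of 13 genes for eIF2 kinases, eIF2 and eIF2B subunits and the kinase regulator Impact, 12 were listed, and of the 6 tested the ratio of 5' UTR to ORF in footprints against the transcriptome was called higher in 1 and lower in 2. The lower ones were Impact and Eif2s2, and the higher one was Eif2ak3 (PERK, the kinase of the endoplasmic reticulum, 1.91 ± 0.55, adjusted p = 0.00937 by edgeR). The call of Eif2ak3 was lost without control replicate 2 (1.36, adjusted p = 0.150) or transcriptome replicate 2 (1.53, adjusted p = 0.0663). Of 22 targets of ATF4 and CHOP, 17 were tested and this ratio was called higher in 2 and lower in 9, with a median of -1.52, where 24.8% of all transcripts were called higher and 32.0% lower. Of 7 other mRNAs with known regulatory uORFs, 5 were tested and edgeR called 0, with 1 lower at an unadjusted p of 0.05, and DESeq2 called 0. Their median was -0.05, against 2.77 for the 8 mRNAs, and the difference was not tested.

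With each drug the ratio of 5' UTR to ORF rose in nearly all tested genes of these lists, as in most transcripts. It was called higher in 9 of 9 tested kinase, eIF2 and eIF2B genes with each drug, in 17, 17 and 15 of 17 targets with DMDA-PatA, harringtonine and puromycin, and in 5 of 5 other uORF mRNAs with each. Of all transcripts 93.6%, 95.4% and 78.3% were called higher, so these counts say little about the lists. In the kinase and eIF2 list, Impact (7.08 ± 0.42) and Eif2s1, the phosphorylated subunit of eIF2 (5.49 ± 0.50), had the smallest adjusted p with DMDA-PatA, Eif2s1 (6.03 ± 0.48) and Eif2b2 (5.13 ± 0.60) with harringtonine, and Eif2s1 (3.78 ± 0.48) and Eif2b5 (4.52 ± 0.90) with puromycin. Among the targets these were the serine metabolism gene Shmt2 (5.45 ± 0.31) and the amino acid transporter gene Slc3a2 (5.45 ± 0.34) with DMDA-PatA, its partner Slc7a5 (8.74 ± 0.45) and Shmt2 (4.82 ± 0.31) with harringtonine, and Slc3a2 (3.37 ± 0.34) and Shmt2 (3.15 ± 0.35) with puromycin. Among the other uORF mRNAs they were the tRNA synthetase gene Eprs and Mdm2 with DMDA-PatA (6.52 ± 0.35 and 5.33 ± 0.36) and with harringtonine (5.74 ± 0.34 and 4.32 ± 0.36), and Eprs (4.48 ± 0.35) and the arginine transporter gene Slc7a1 (3.36 ± 0.45) with puromycin. Some of these genes had few normalized footprints on the 5' UTR in the control. The values were 2.36 and 7.25 for Slc7a5, 7.07 and 5.44 for Impact, 1.18 and 7.25 for Eif2b2, and 17.7 and 0.906 for Eif2b5. The size of their differences is therefore uncertain.

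On the ORF alone, the targets of ATF4 and CHOP were called lower in 22, 21 and 16 of 22 with DMDA-PatA, harringtonine and puromycin under spike-in scaling, and the kinase, eIF2 and eIF2B genes in 12, 10 and 9 of 12, where 99.3%, 92.9% and 90.1% of all ORFs were. In the latter list the ORF of Eif2s3x, the gamma subunit of eIF2, was called higher with harringtonine (1.53 ± 0.44, adjusted p = 0.000689 by edgeR) and with puromycin (0.98 ± 0.44, adjusted p = 0.0300). Its control libraries were far apart, at 196 and 517 normalized footprints, against 978 and 1082 under harringtonine and 771 and 637 under puromycin. Without control replicate 1 neither Eif2s3x difference was called (1.00 and 0.45, adjusted p = 0.153 and 0.521), without control replicate 2 they were 2.40 and 1.85, and the puromycin call was also lost without puromycin replicate 1 (0.83, adjusted p = 0.176) or 2 (1.11, adjusted p = 0.0738). The other uORF mRNAs were called lower in 6 of 6 with each drug. The median log2 difference with puromycin was -1.84 over the targets, -2.78 over the kinase and eIF2 genes and -2.10 over the other uORF mRNAs. It was -0.93 over the 7 tested of the 8 mRNAs and -2.48 over all ORFs. These medians are not adjusted for ORF length.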

How the data were processed

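The reads of the 10 libraries were, per the study's methods and the labels, sequenced on SOLiD instruments from stranded libraries, aligned by the authors to mm10 (GRCm38) with LifeScope, kept where the match was unique and, for footprints, of a length that showed triplet periodicity, and counted per region of each listed transcript. The submitters' processing notes also name Picard 1.38. The authors scaled footprints to spike-in RNA and the transcriptome between replicates, and deposited the result as a signal per 5' UTR, ORF and 3' UTR. In each library and region every signal value was a whole multiple (100% within 0.001) of the value of 1 read, and dividing by it gave whole reads. The tests had been planned for the deposited values as counts and were run on these recovered reads, with the authors' size factors as offsets.

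The main test was edgeR 4.0.16 (quasi-likelihood, R 4.3.3, Benjamini-Hochberg, adjusted p of 0.05) with the 8 footprint libraries in 1 fit, no covariate, over features with 10 or more reads in 2 or more libraries. The ratio of 5' UTR to ORF was tested with a term for each library and a region by drug term. The ORF test took in coding and noncoding transcripts, and the tests of the 5' UTR and of the ratio took coding transcripts only. A standard error is the log2 difference over the square root of F. Alternatives used DESeq2 1.42.0, limma 3.58.1 on log2(value + 1) or log2(value + 5), TMM, no filter and a replicate block. The tests were tried on simulated counts in which a small part of the transcripts changed, in the DMDA-PatA group only, with the spread taken from these data. In the data most ORFs fell, so that trial does not show how the tests behave under such a common drop. Shares used whole reads, with exact 95% binomial intervals. Translation efficiency divided control by transcriptome values of the ORF, each scaled to its total over coding transcripts, and its percentile is among those with at least 20 transcriptome reads. uORFs were read from GENCODE M21 transcripts with Python 3.11.15.

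All members are named. Of each list of other genes, up to 2 with the smallest adjusted p for the ratio were named per drug, and Eif2ak3, Impact, Eif2s2 and Eif2s3x were named after their values were seen. The members and the lists were chosen with earlier results of these data known. Eif2b4 was not listed. Precision is limited by 2 libraries per condition.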

Additional observations from a re-analysis of the deposited data

How the results depend on the processing

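With 2 libraries per condition, and few reads on the ORFs of Atf5, Ddit3, Ppp1r15a and Slc35a4 under DMDA-PatA, single libraries decided many calls, and values close to the threshold changed sides. Footprint levels rest on the spike-in scaling, which was not checked against another measure here. The ratio of 5' UTR to ORF within a library does not depend on it. The cause of the changes below was not tested, except that TMM removes the common drop by construction.

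TMM was run on the same 12499 ORFs and 6647 5' UTRs. It called 2354 ORFs higher and 2945 lower with DMDA-PatA, 3324 and 3749 with harringtonine, and 3032 and 3112 with puromycin. Of the 8 mRNAs, 2 ORFs were then called lower with DMDA-PatA, 3 higher and 2 lower with harringtonine, and 5 higher and 1 lower with puromycin. The ORF differences that changed sign under TMM were with DMDA-PatA 0.10 for Atf4, 1.47 for Ddit3 and 0.37 for Ifrd1, with harringtonine 2.39 for Ddit3, 1.13 for Ifrd1 and 1.45 for Ppp1r15a, and with puromycin 1.54 for Atf4, 1.23 for Atf5, 1.72 for Ifrd1 and 2.47 for Ppp1r15a. On the 5' UTR TMM gave 1760 higher with DMDA-PatA, 1411 higher and 1242 lower with harringtonine, and 127 higher and 156 lower with puromycin. It called 3 of the 8 lower with DMDA-PatA, 0 higher and 5 lower with harringtonine, and 1 higher with puromycin (Ddit3), and it turned the harringtonine differences of Ddit3 (-0.0936), Ibtk (-0.20) and Ppp1r15a (-0.75).

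When the scaling factors of the DMDA-PatA libraries and of the harringtonine libraries were swapped, 14 ORFs were higher with DMDA-PatA and 68 with puromycin, 644 5' UTRs were lower with harringtonine, and 80 were higher and 70 lower with puromycin. Of the 8 mRNAs, 0 were then higher on the 5' UTR with harringtonine, where Atf4 had 0.91 (adjusted p = 0.0504 by edgeR), and 1 with puromycin (Ddit3). Ppp1r15a changed to 0.00632 on the ORF with puromycin and to -0.27 on the 5' UTR with harringtonine. DESeq2 called 4 ORFs higher with DMDA-PatA, 2 of the 8 lower on the ORF with puromycin, 0 of the 8 higher on the 5' UTR with harringtonine, and 2 ratios lower with puromycin. limma on log2(value + 1) called 0 of the 8 higher on the ORF and 1 on the 5' UTR with puromycin, and 96 5' UTRs higher and 48 lower. On log2(value + 5) it called 1 of the 8, and 83 and 52 of all. The Ppp1r15a 5' UTR was at -0.0251 and -0.0216 with harringtonine in these fits. Without the read filter 14 ratios were lower with harringtonine and 2 with puromycin.

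The labels give replicate numbers and do not say whether same-numbered libraries were made together. Deviations of same-numbered footprint libraries correlated at -0.02 to 0.16 across ORFs and at -0.06 to 0.16 across 5' UTRs, so they were not treated as pairs. Control and transcriptome libraries were not compared in this way. The methods took total RNA from part of the lysate, so these may be pairs. With the replicate block, 14 5' UTRs were higher and 15 lower with puromycin, and Ppp1r15a was at 0.0711 on the ORF with puromycin. The block ended the puromycin call of the Atf4 ORF (-0.92, adjusted p = 0.0636 by edgeR) and added that of Atf5 in control footprints against the transcriptome (1.05), and changed no other call among the 8 mRNAs.

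Over the fits that left out 1 library each, the ORFs called higher numbered 3 to 10 with DMDA-PatA, 19 to 114 with harringtonine and 9 to 61 with puromycin. The 5' UTRs called higher and lower numbered 538 to 979 and 1186 to 2124 with DMDA-PatA, 1140 to 2615 and 165 to 419 with harringtonine, and 4 to 83 and 4 to 51 with puromycin. The ratios called lower numbered 4 to 11 with harringtonine and 1 to 5 with puromycin, and 856 to 2175 in control footprints against the transcriptome. Of the 8 mRNAs, 0 to 1 ORFs were called higher and 2 to 5 lower with puromycin. On the 5' UTR 1 to 7 were called lower with DMDA-PatA, 0 to 1 higher with harringtonine and 0 to 2 higher with puromycin. Differences that changed sign ranged from -0.35 to 0.28 for the Ppp1r15a ORF with puromycin, from -1.23 to 0.0723 and from -0.42 to 1.68 for the Ibtk 5' UTR with DMDA-PatA and puromycin, and from -0.55 to 0.48 for the Ppp1r15a 5' UTR with harringtonine. For the ratio they ranged from -0.47 to 0.27 for Ifrd1 with harringtonine, and from -0.31 to 0.70 for Ddit3 and from -0.0551 to 0.73 for Ppp1r15a with puromycin. Of 558 such values for single mRNAs, 509 kept direction and side of the threshold, 13 changed sign, 24 lost a call and 12 gained one. Scaling translation efficiency to all regions multiplied each of the 8 values by 1.47 and left their order as it was.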
